A study of Mus musculus with 9 samples.

Results

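Mitosis and spindle genes were followed gene by gene in LSK cells, the Lin- Kit+ Sca1+ stem and progenitor cells of mouse bone marrow, of young mice, aged mice and aged mice given CASIN. The set held 43 genes, taken by their symbols from a list that was drawn up with earlier results of these data known, out of the 31053 genes in the deposited matrices. All 43 were present in every library, and all are protein-coding genes spread over 18 chromosomes. They were grouped by role into 5 genes of chromosome structure, 6 cyclins, Cdk1 and regulators, 2 genes of the anaphase-promoting complex, 5 genes of the centromere and kinetochore, 11 genes of spindle assembly and motors, 7 genes of the spindle midzone and cytokinesis, 4 mitotic kinases and passenger proteins, and 3 genes of the spindle checkpoint.

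At mitosis the kinase Cdk1 and its cyclins trigger chromosome condensation, spindle motors and microtubule-binding proteins build the bipolar spindle, kinetochores attach the chromosomes to it, and the checkpoint holds the anaphase-promoting complex inactive until every attachment is made. Most of these genes are transcribed late in the cell cycle, and a cell at rest holds little of their RNA. Hematopoietic stem cells (HSCs) divide rarely, while multipotent progenitors (MPPs) divide more often.

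The 9 libraries came from C57BL/6 mice, with 3 samples a group. Young mice were 10 to 12 weeks old and aged mice more than 80 weeks. Both received cyclodextrin, the vehicle, while CASIN mice were aged mice given CASIN, an inhibitor of the small GTPase Cdc42, in cyclodextrin at 25 mg per kg. Every mouse received 4 intraperitoneal injections, 1 every 24 h, and marrow was taken on day 5, frozen viably, thawed and sorted. The labels do not say whether a library held 1 animal or several, so p-values measure the spread between these samples, which may in part be technical. Sequencing batch 1 held young samples 1 and 2, aged sample 1 and CASIN samples 1 and 2, and batch 2 held young sample 3, aged samples 2 and 3 and CASIN sample 3. A comparison of aged with either other group within a batch therefore rests on a single sample on at least 1 side.

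To show the letters that many genes of the late cell cycle carry before their start, the 120 bases before the RefSeq start of 5 members are printed 5′ to 3′ on the gene's strand, in build GRCm38.p6. These 5 were taken from the members whose window lies outside every annotated exon. Capitals mark CCAAT, or ATTGG where it lies on the other strand, and the words TTTGAA and TTCGAA, or TTCAAA for the other strand, which are core words of the cell cycle homology region (CHR). The windows lie on the minus strand, at chr11:99024190-99024309 for Top2a, chr7:135716380-135716499 for Mki67, chr9:70421555-70421674 for Ccnb2, chr1:189688087-189688206 for Cenpf and chr11:40733438-40733557 for Hmmr.
Top2a: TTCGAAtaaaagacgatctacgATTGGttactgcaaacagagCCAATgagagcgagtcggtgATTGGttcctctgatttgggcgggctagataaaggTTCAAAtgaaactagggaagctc
Mki67: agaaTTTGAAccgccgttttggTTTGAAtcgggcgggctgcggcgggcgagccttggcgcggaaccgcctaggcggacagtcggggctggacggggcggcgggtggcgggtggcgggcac
Ccnb2: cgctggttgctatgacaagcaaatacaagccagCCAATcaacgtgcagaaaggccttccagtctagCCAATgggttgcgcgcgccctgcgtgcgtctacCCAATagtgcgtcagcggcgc
Cenpf: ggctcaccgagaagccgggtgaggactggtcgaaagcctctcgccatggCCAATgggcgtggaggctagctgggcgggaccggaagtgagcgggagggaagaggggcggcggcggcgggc
Hmmr: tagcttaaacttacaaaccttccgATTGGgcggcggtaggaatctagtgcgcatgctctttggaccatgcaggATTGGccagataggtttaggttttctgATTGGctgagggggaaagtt

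Top2a carried CHR words and CCAAT words within this window, Mki67 carried CHR words, and Ccnb2, Cenpf and Hmmr carried CCAAT words. A window was found for 36 of the 43 members, in 38 windows, since some have more than 1 start. Within 250 bases before the start and on either strand, TTTGAA or TTCGAA lay in 17 of the 38 windows (44.7%) and in 17.1% of all 32851 windows of this length. CCAAT lay in 78.9% of the members' windows and in 33.8% of all, and 2 or more copies of it in 50% and 10.1%. Both kinds of word stood together in 42.1% of the members' windows and in 6.02% of all. These shares describe the letters and were not tested.

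After filtering, 15856 cells were kept, 1112 to 2417 a sample, with 17555578 to 35118707 UMIs a sample. In batch 1 the filters kept 1112 to 2203 cells a sample, out of 1972 to 2895 barcodes. In batch 2 they kept 1201 to 2417, out of 3124 to 6528. A UMI stands for 1 captured RNA molecule, and CPM give a gene's UMIs scaled to 1000000 UMIs of the sample's summed cells. Over all LSK cells a member had 32 to 6590 UMIs a sample. The sort markers Kit (112 to 225 CPM) and Ly6a, which encodes Sca1 (87.9 to 186 CPM), were present in all samples. The median mitochondrial share of the kept cells was 2.65 to 3.49% in batch 1 and 5.03 to 7.0% in batch 2. Aged sample 1 stood apart for the members: its CPM lay below both young and both CASIN samples of its batch for all 43. Results that rest on it are given with and without it. Genes of mature myeloid cells summed to 233 to 719 CPM and those of lymphocytes to 154 to 538 CPM, each highest in aged sample 3. Of the lymphocyte sum in aged sample 3, Igkc alone gave 387 CPM, against 1.17 to 173 CPM in the other samples. Nkg7 (131 CPM) and Cd79b (10.5 CPM) of that list were not highest in aged sample 3. Genes of mast cells and basophils summed to 119.7 CPM in young sample 3, the 1 young sample of batch 2 (Prss34 56.4 CPM, Mcpt8 40.3 CPM), and to 8.02 to 29.0 CPM in the others. The part of these cell types in the results was not tested, and main counts that moved without young sample 3 are given beside them.

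A small set of cells carried many of the members at once. With every cell thinned to 4000 UMIs, so that all had the same depth, 1476 of 15524 cells (9.51%) held a UMI of 10 or more of the 43 members, and 24.7% held none. The cells with 10 or more held 57.3 to 76.7% of the members' UMIs, counted without thinning, over the samples of batch 1. Over those of batch 2 they held 46.5 to 61.0%. Plk1, the polo kinase of mitotic entry, was detected in 1.51% of cells, and the median such cell held 18 of the members. For Ube2c, the ubiquitin-conjugating enzyme that works with the anaphase-promoting complex, the median was 15. For Top2a, the topoisomerase that untangles sister chromosomes, it was 8. Cenpa, the histone of the centromere, was detected in 30% of cells with a median of 2 members, and Smc4, a condensin subunit, in 27.7% with a median of 3. Ckap5, which lengthens microtubules, and Kif23, a midzone motor, also had medians of 3. Detection of these 4 genes was thus seldom accompanied by that of the rest of the set. By contrast, the median cell with Plk1, Cdkn3, Pimreg, Aspm, Hmmr, Cdc25c or Kif2c held 16 or more. These shares and medians pool both batches. The share of cells with Cenpa differed widely between the batches, as given below, and the medians were not computed by batch.

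Cells were grouped by clustering on genes other than those of the cell cycle, so that the members did not set the groups directly, and groups were named from marker genes. Of the 10 genes that led the larger HSC-like cluster by fold, 8 were on the list of HSC markers. That list was chosen with earlier results of these data known, so this match is no independent check of the name. HSC-like cells numbered 4667 (29.4% of cells), lymphoid-primed (LMPP-like) cells 3547, MPP3-like cells 3468, MPP2-like cells 793 and MPP1-like cells 601. MPP1-like cells had a median of 5665 UMIs against 11698 over all cells. Of their 10 leading genes 3 were on the list of MPP1 markers, and the 10 included Gm42418, Igkc and mt-Nd6. Further clusters were left unnamed and are called by a leading gene, Ung (1378 cells) or Ube2c (913 cells). The 10 genes leading the Ube2c-led cluster included the members Ube2c, Ccnb2, Nusap1, Hmmr, Cenpf, Birc5, Prc1, Tpx2 and Cdkn3. With cells thinned as above, 10 or more members were held by 82.3% of Ube2c-led and by 0.691% of HSC-like cells. The HSC-like class thus held few cells with many members, and whether dividing HSCs lay in other clusters was not tested. In HSC-like cells the share of cells with a UMI of a member ran from 0.0648% for Cdc25c, the phosphatase that activates Cdk1, to 24.3% for Cenpa, with a median of 0.928% over the members. The median was 1.6% in MPP3-like, 4.0% in LMPP-like, 8.98% in MPP2-like and 28.6% in Ube2c-led cells. Top2a was read in 86.8% of the Ube2c-led cells. These shares describe the clusters and were not tested, and the shares that free RNA alone would give were not measured, since no group in the libraries is known to lack these genes.

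The Ube2c-led cells made up 7.39, 6.99 and 8.99% of the young samples 1 to 3, 2.05, 6.85 and 6.84% of the aged and 4.14, 4.13 and 4.39% of the CASIN samples. They held 50.4, 48.6 and 32.2% of the members' UMIs in the young, 38.9, 33.2 and 34.5% in the aged and 46.0, 42.9 and 30.3% in the CASIN samples. Except in young sample 1, more of the members' UMIs thus lay outside this cluster than in it. The share of all LSK cells with 10 or more members was 11.1 to 12.2% in the young, 7.14 to 8.22% in the CASIN and 3.32 to 13.5% in the aged samples, with aged sample 1 lowest and aged sample 2 highest of all 9.

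**Figure D1:**
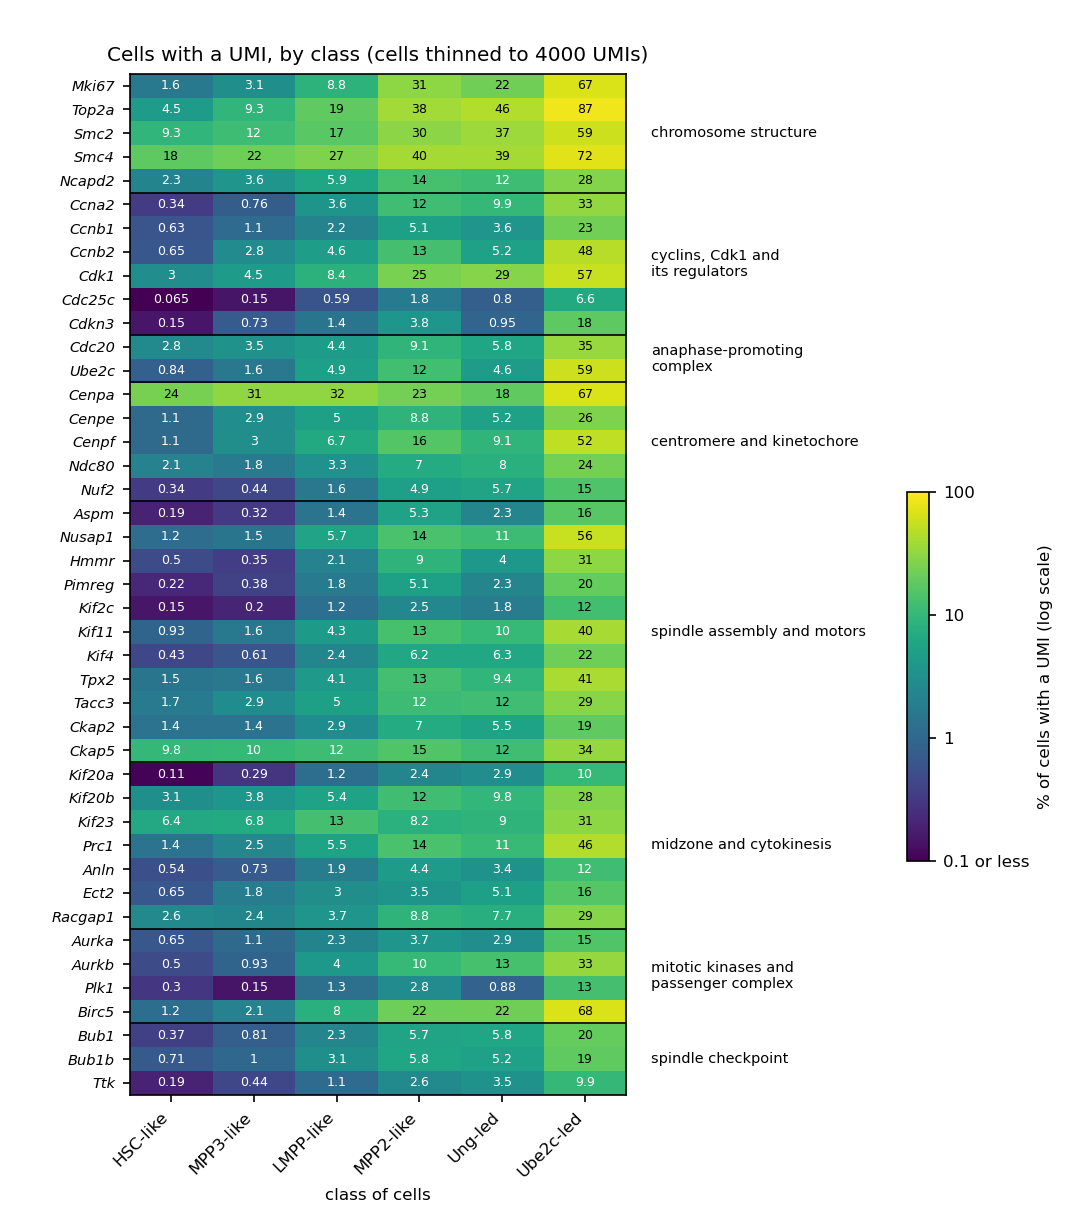
Heat map of the percent of cells with a UMI of each of the 43 members (rows, by role) in 6 classes of cells (columns), all cells thinned to 4000 UMIs and both batches pooled, with the colour on a log scale and the percent printed in each field. Most rows rise from HSC-like (median 0.928%) to Ube2c-led cells (median 28.6%), while Cenpa, Smc4, Smc2, Ckap5 and Kif23 are above 6% in HSC-like cells too.

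Summed over all LSK cells, the fitted difference from young was negative for every member in aged and in CASIN samples, by less than 1 log2 unit each. None passed the adjusted threshold in any of the 3 comparisons. For the aged the size and sign depended on single libraries. The median difference from young was 0.07 without aged sample 1 and -0.78 without young sample 3. Within batch 1 every member was lowest in aged sample 1, while in batch 2 both aged samples lay below young sample 3 for 14 members and above it for 10. CASIN samples lay below the young samples of the same batch for nearly every member. In sums over cells, fewer dividing cells and less RNA per dividing cell cannot be told apart. Levels are given first, by role, and the tests after them.

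Among the genes of chromosome structure, Top2a stood at 188, 176 and 185 CPM in young samples 1 to 3, at 79.1, 204 and 179 CPM in the aged and at 141, 149 and 124 CPM in the CASIN samples. All CASIN samples lay below all young ones, and the aged samples spanned both. Mki67, which coats mitotic chromosomes and is used as a marker of dividing cells, stood at 74.7, 71.2 and 117 CPM in the young, at 29.0, 137 and 127 CPM in the aged and at 48.8, 55.5 and 91.4 CPM in the CASIN samples. Its level was higher in the batch 2 sample or samples of each group than in those of batch 1. Smc4 ran from 76.4 CPM in aged sample 1 to 153 CPM in young sample 3.

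Cdk1, the kinase that starts mitosis, stood at 77.8, 70.5 and 93.1 CPM in the young, at 36.8, 64.4 and 54.3 CPM in the aged and at 52.7, 60.7 and 48.7 CPM in the CASIN samples. Neither the aged nor the CASIN samples overlapped with the young ones. Ccnb1, the cyclin that pairs with Cdk1 at mitotic entry, stood at 25.2, 29.2 and 9.15 CPM in the young, at 11.5, 16.7 and 9.27 CPM in the aged and at 14.7, 23.2 and 7.34 CPM in the CASIN samples, so that the batch 2 sample was lowest among the young and the CASIN. Ube2c was likewise lowest in the batch 2 sample among the young and the CASIN, with 100, 126 and 51.9 CPM in the young, 36.5, 73.8 and 47.9 CPM in the aged and 60.9, 94.3 and 33.9 CPM in the CASIN samples. Cdc20, which activates the anaphase-promoting complex, ran from 15 CPM in CASIN sample 3 to 47.1 CPM in young sample 2.

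At the centromere, Cenpa stood at 82.5, 112 and 252 CPM in the young, at 48.0, 189 and 190 CPM in the aged and at 60.7, 95.9 and 183 CPM in the CASIN samples, with each batch 2 sample above all of batch 1. Ndc80, which holds microtubules at the kinetochore, showed no such split, with 24.5, 23.1 and 16.8 CPM in the young, 9.36, 14.6 and 14.3 CPM in the aged and 13.5, 14.7 and 13.4 CPM in the CASIN samples. All aged and all CASIN samples lay below all young samples for Ndc80.

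Of the spindle genes, Tpx2, which seeds microtubules near the chromosomes and binds Aurora A, stood at 41.4, 46.8 and 31.0 CPM in the young, at 15.6, 32.2 and 26 CPM in the aged and at 27.6, 35.1 and 22.7 CPM in the CASIN samples. Kif11, the motor that pushes the spindle poles apart, stood at 33.6, 40.2 and 34.4 CPM, at 14, 34.1 and 27.9 CPM and at 26.4, 31.7 and 21.8 CPM in the same order. For Kif11 the CASIN samples lay below the young ones, while aged sample 2 lay among the young. Kif2c, which takes microtubules apart at kinetochores, was among the lower members, at 10.3, 10.5 and 4.97 CPM, at 3.1, 4.78 and 3.43 CPM and at 6.72, 8.8 and 3.49 CPM.

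Ect2, which turns on the GTPase of the cleavage furrow, stood at 13, 12.5 and 17.3 CPM in the young, at 4.57, 12.1 and 11.9 CPM in the aged and at 8.54, 8.7 and 10.7 CPM in the CASIN samples, and neither group overlapped with the young. Kif20b, a motor of late mitosis, did not overlap between CASIN and young either, with 32.4, 27.1 and 37.3 CPM in the young, 15.4, 25.8 and 28.2 CPM in the aged and 22.6, 24.2 and 23.8 CPM in the CASIN samples. Plk1 stood at 12.8, 12.4 and 1.81 CPM in the young, at 5.01, 4.69 and 2.12 CPM in the aged and at 7.52, 11.5 and 1.51 CPM in the CASIN samples. Birc5, the survivin of the chromosomal passenger complex, stood at 108, 118 and 63.9 CPM, at 50.1, 68.3 and 51.5 CPM and at 73.3, 87.7 and 45.2 CPM. For both genes the batch 2 sample was lowest within the young and within the CASIN samples. Bub1b, the checkpoint kinase-like protein BubR1, ran from 8.31 CPM in CASIN sample 3 to 18.6 CPM in young sample 2.

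**Figure D2:**
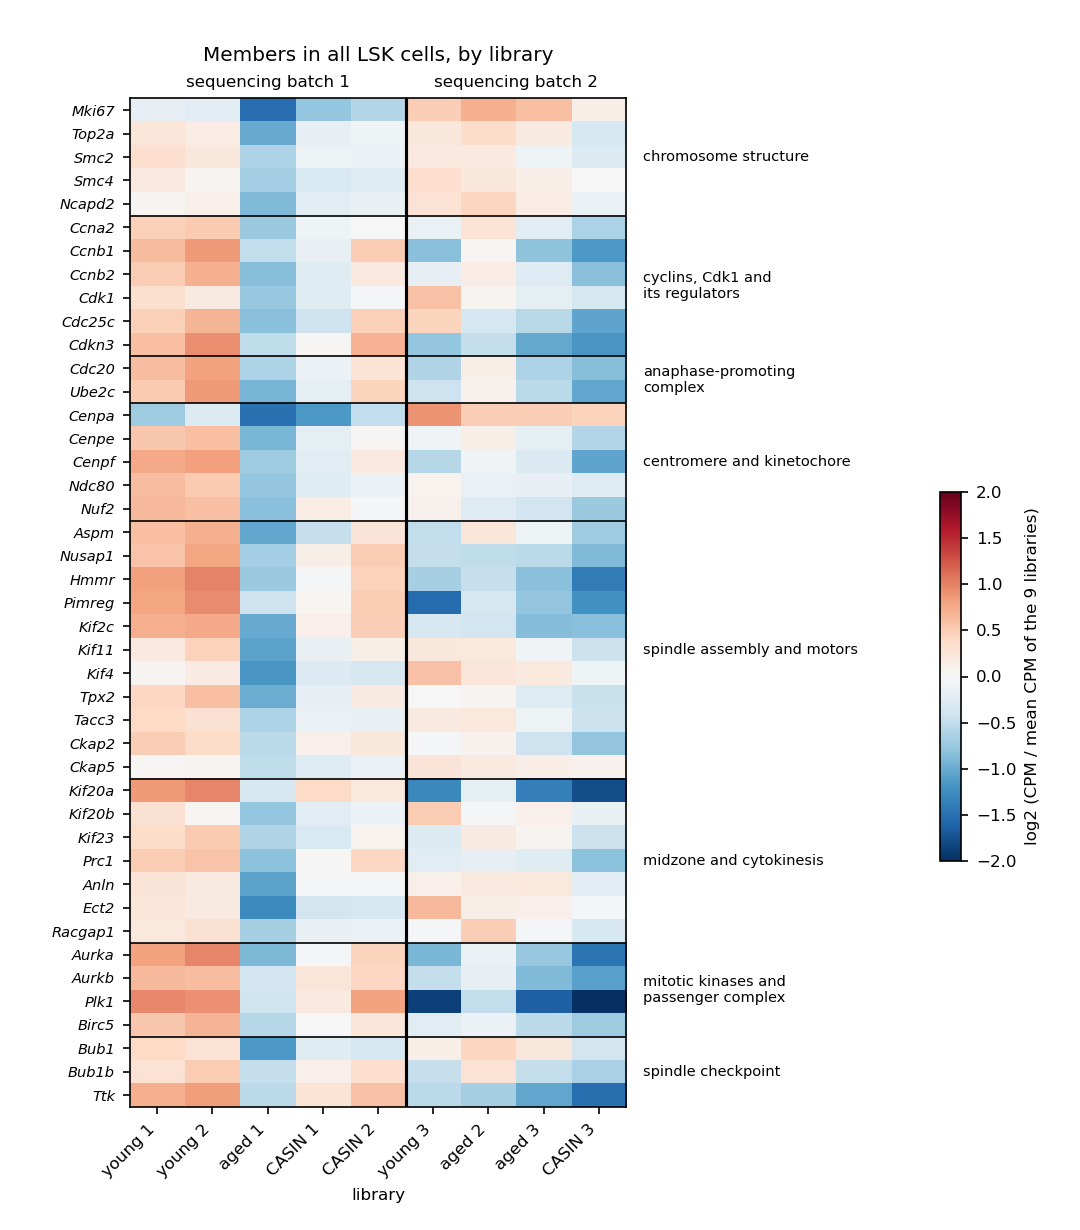
Heat map of the log2 ratio of each member's CPM to its mean over the 9 libraries, summed over all LSK cells, with libraries as columns split by sequencing batch and members as rows by role. Aged sample 1 is the lowest column of batch 1 in every row, and CASIN sample 3 lies below young sample 3 in 42 of the 43 rows.

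Aged against young asked how age alone shifted the members. In the edgeR fit over all 9 samples with the batch as a term, 0 of the 43 members passed an adjusted p of 0.05, while 4.10% of the 13642 genes tested did. At an unadjusted p of 0.05, 12 members passed, all lower, as did 7.99% of all genes in that direction, and with DESeq2 8 members passed the adjusted threshold, beside 8.32% of genes. The fitted log2 difference was negative for all 43, with a median of -0.44 against 0.01 over all genes tested. The smallest p-values were those of Cdk1, at -0.72 (SE 0.18, edgeR adjusted p = 0.0539), Ect2, at -0.86 (adjusted p = 0.0554), and Kif20b, at -0.62 (adjusted p = 0.0651).

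The direction between aged and young was that of batch 1. There the median difference over the members was -1.27 and all 43 were negative, while in batch 2 it was 0.02, with 20 of 43 negative. In batch 1, aged sample 1 lay below both young samples for 43 of 43 members and for 42.5% of all genes. In batch 2, both aged samples lay below young sample 3 for 14 members (36.6% of all genes) and above it for 10 (36.0%). Across both batches, all aged samples lay below all young ones for 7 members, among which were Cdk1, Ect2 and Ndc80, and for 4.35% of all genes. Without aged sample 1 the median over the members was 0.07 and 0 members passed, beside 1.45% of genes. Without young sample 3 the median was -0.78 and 1 member passed, beside 6.8% of genes. Each of these fits left 1 of the groups with no sample in 1 batch.

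A test of the batch 1 difference minus the batch 2 difference, with the edgeR interaction term, was passed by 17 of 43 members, all lower in batch 1, against 3.09% of all genes in either direction and 0.982% in that direction. Mki67 was among them, at -1.51 (SE 0.19, edgeR adjusted p = 0.0108), as were Aurka, the kinase of the spindle poles, at -2.32, Aspm, which focuses the poles, at -2.28, and Top2a, at -1.26. In this test the aged samples of batch 1 and the young samples of batch 2 are 1 library each, aged sample 1 and young sample 3, so the library and the batch cannot be told apart.

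CASIN against aged asked whether treatment moved the members. None of the 43 passed in the edgeR fit (edgeR, 0 at an unadjusted p of 0.05, beside 3.22% of genes, and 0 with DESeq2), and none of the 13642 genes did (0.00%). The median was -0.01, with 23 of 43 negative. The smallest p-values were those of Cenpa, at 0.25, Kif2c, at 0.38, and Ect2, at 0.23 (edgeR adjusted p = 0.987 for each). This median near 0 stood over opposite differences in the batches. In batch 1 the median was 0.79 and 0 members were negative, and in batch 2 it was -0.57 and all 43 were negative. CASIN sample 3 lay below both aged samples of its batch for 42 members (35.5% of all genes), and aged sample 1 lay below both CASIN samples of its batch for 43 (36.2%). The test of the difference between batches was passed by 0 members at the adjusted threshold and by 41 at an unadjusted p of 0.05, beside 13.3% of genes (edgeR). Without aged sample 1 the median was -0.50, with 32 members at an unadjusted p of 0.05. At the adjusted threshold 0 members passed, beside 0.0% of genes (edgeR). The share of all genes at the unadjusted p was not computed for that fit, so the 32 cannot be set beside it.

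CASIN against young set treated aged mice beside young ones and was the only pairing with 2 samples a side within a batch. None of the 43 members passed in the edgeR fit, while 4.27% of all genes did. At an unadjusted p of 0.05, 14 passed, all lower (9.77% of all genes in that direction), and with DESeq2 5 passed the adjusted threshold, beside 9.3% of genes. Every member was negative, with a median of -0.50. The smallest p-values were those of Cdk1, at -0.57 (SE 0.17, edgeR adjusted p = 0.0860), Ndc80, at -0.65 (adjusted p = 0.0869), and Ect2, at -0.63 (adjusted p = 0.101). Here both batches had nearly the same median, -0.51 in batch 1 with 43 negative and -0.50 in batch 2 with 42 negative. The test of the difference between batches was passed by 0 members, beside 0.0660% of genes (edgeR).

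Counted by the order of samples, both CASIN samples lay below both young samples of batch 1 for 40 members (26.2% of all genes), and CASIN sample 3 below young sample 3 for 42 (51.6%). Both held together for 39 members and for 18.9% of all genes. All CASIN samples lay below all young ones without regard to batch for 14 members and 3.64% of all genes, and all CASIN below all aged for 0 members (0.704%). The count that passed changed with the libraries in the fit. Without aged sample 1, which is in neither group, 19 passed, beside 11.4% of all genes. Without young sample 3 the count was 2, beside 10.4%. With the aged samples left out of the fit it was 26, beside 13.4%. CASIN and aged were both compared with the same young samples, so their differences from young are not independent of each other.

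**Figure D3:**
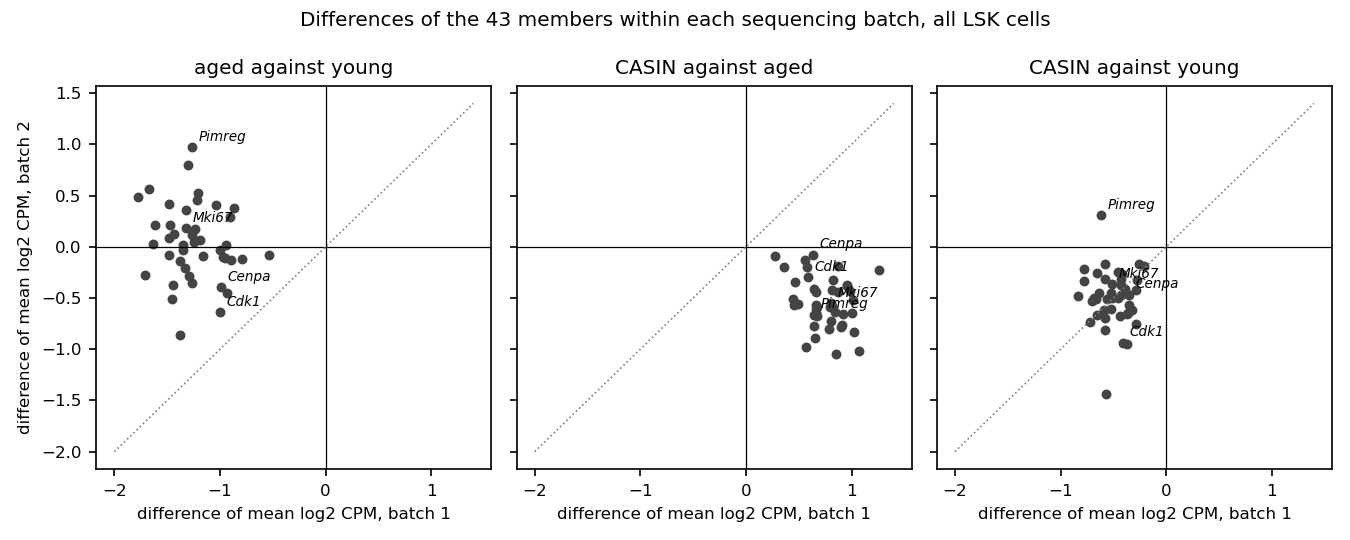
Each point is 1 member over all LSK cells, with the difference of mean log2 CPM within batch 1 on the x axis and within batch 2 on the y axis, 1 panel per comparison, with a dotted line where both are equal. Points lie left of 0 and around 0 in height for aged against young, to the right and below 0 for CASIN against aged, and below 0 in both batches for nearly all members for CASIN against young.

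The share of LSK cells with a UMI of a member gave a reading that high counts in a few cells do not dominate. With cells thinned to 4000 UMIs, the 3 CASIN samples lay below the 3 young samples for 14 of the 26 members of a panel chosen to hold every role, and 4.03% of all genes did so. Top2a was read in 23.2, 21.1 and 27.4% of young cells and in 17.0, 15.5 and 15.1% of CASIN cells (23.9% ± 3.17 against 15.9% ± 1.0, SD, n = 3, exact permutation test, 2-sided p = 0.1 before any adjustment). Tpx2 was read in 7.63, 7.67 and 7.65% of young and 5.52, 5.0 and 4.67% of CASIN cells, and Cdk1 in 13.2, 12.2 and 18.2% and 8.5, 11.1 and 9.98%. This exact test cannot go below p = 0.1 with 3 samples a group. Between aged and young, 4 of the 26 did not overlap, all lower in aged (4.62% of all genes), and between CASIN and aged 0 did (1.17% of genes lower). For aged samples 2 and 3, the share with Top2a was 28.1 and 24.9%, inside or above the young range, and for aged sample 1 it was 9.12%. Mki67 overlapped in all pairings, with 11.7, 11 and 17.4% of young, 3.52, 18.2 and 16.6% of aged and 6.78, 6.95 and 11.2% of CASIN cells.

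The difference between sequencing batches was unequal among the members, and it was examined after their values were seen. The batch term of the edgeR fit passed for 18 of 43 members, 12 lower and 6 higher in batch 2, beside 71.8% of all genes. Lower in batch 2 were Plk1, at -2.04, Kif20a, a midzone motor, at -1.60, Pimreg at -1.40, the checkpoint kinase Ttk at -1.27, and Aurka at -1.13. Cenpa, at 1.44, and Mki67, at 1.12, were among those higher in batch 2. The share of cells with a UMI of Cenpa was 9.58 to 19.5% over the samples of batch 1 and 45.8 to 54.7% over those of batch 2. Cells of the Ube2c-led cluster with 20 or more members made up 23.9 to 38.3% of it in batch 1 and 0 to 2.63% in batch 2. The mitochondrial shares given above also differed between the batches, and their part was not tested.

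In HSC-like cells the fitted difference of CASIN from young was negative for all 38 members that could be tested, and members of 6 of the 8 roles passed. Neither gene of the anaphase-promoting complex passed, nor did a gene of the spindle checkpoint. Of the 43 members 24 fell and 0 rose, beside 13.5% of all genes tested there (5.25% lower), while 5 (Cdc25c, Cdkn3, Kif2c, Plk1 and Ttk) had too few UMIs there to be tested. In LMPP-like cells of the same samples 0 of 43 passed, beside 0.0981% of genes. Between aged and young HSC-like cells 1 member, Cdk1, fell, beside 7.02% of genes. In a clustering that kept cell cycle genes but had scores of cell cycle phases regressed out, 26 of 38 did. The groups differed in how many HSC-like cells they held, 20.5, 18.4 and 20.2% of the young, 45.8, 28.5 and 26.2% of the aged and 36.7, 32.8 and 38.6% of the CASIN cells, and the CPM given here are relative to the UMIs of these cells alone.

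Mki67 stood at 14.8, 20 and 15.4 CPM in HSC-like cells of young samples 1 to 3, at 1.79, 21.4 and 21.0 CPM in the aged and at 1.91, 2.64 and 2.94 CPM in the CASIN samples. Its fitted log2 difference of CASIN from young was -2.89 (SE 0.58, edgeR adjusted p = 0.00798), and the groups did not overlap. Top2a stood at 49.7, 52.1 and 29.5 CPM in the young, at 6.5, 39.6 and 37.2 CPM in the aged and at 7.12, 9.51 and 7.58 CPM in the CASIN samples, a difference of -2.50 (SE 0.49, edgeR adjusted p = 0.00653). The aged samples of both genes split by batch, with aged sample 1 at the CASIN level and aged samples 2 and 3 at the young level. Smc2, a condensin subunit, fell by 0.83, while Smc4, at -0.47 (edgeR adjusted p = 0.0518), and Ncapd2, a condensin subunit as well, did not pass.

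Cdk1 stood at 22.5, 18.5 and 24.4 CPM in the young, at 4.08, 17.3 and 13.5 CPM in the aged and at 3.47, 4.58 and 6.11 CPM in the CASIN samples. It had the smallest adjusted p of the members, with a difference of CASIN from young of -2.23 (SE 0.30, edgeR adjusted p = 0.00093), and of aged from young of -1.31 (SE 0.30, edgeR adjusted p = 0.0217). All aged and all CASIN samples lay below all young ones. Ccnb1 stood at 5.1, 7.77 and 2.87 CPM in the young, at 2.42, 4.12 and 3.39 CPM in the aged and at 1.56, 2.11 and 0.792 CPM in the CASIN samples, and CASIN differed from young by -1.83. Ccnb2, the other mitotic B cyclin of the set, fell as well, by 3.34. It stood at 4.04, 12.4 and 2.16 CPM in the young and at 0.51, 10.0 and 8.35 CPM in the aged samples. In the CASIN samples it stood at 0.347, 0.704 and 1.02 CPM, levels so low that the size of its fall is uncertain. Ccna2, the cyclin that acts before mitosis, was at -2.34 and did not pass (edgeR adjusted p = 0.0674). Neither gene of the anaphase-promoting complex passed, with Ube2c at -3.19 (SE 1.04, edgeR adjusted p = 0.0646), with young sample 2 at 29.8 CPM and the other young samples at 5.27 and 4.67 CPM.

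At the centromere and kinetochore 4 of 5 members fell. Ndc80 stood at 6.85, 10.5 and 9.34 CPM in the young, at 2.42, 7.45 and 9.71 CPM in the aged and at 1.56, 1.94 and 6.9 CPM in the CASIN samples, with a difference of -1.51, and CASIN sample 3 just overlapped with the young. Cenpa fell by 0.76, the smallest fall of the 24, over a difference between batches that was much larger, with 27.8, 52.3 and 217 CPM in the young, 19, 160 and 180 CPM in the aged and 16.8, 25.5 and 138 CPM in the CASIN samples. Cenpf and Nuf2, both of the kinetochore, fell, while Cenpe, the motor that moves chromosomes to the spindle's middle, was at -1.18 and did not pass. Nuf2 stood at 0.174, 0 and 0.566 CPM in the CASIN samples, so the size of its fall is uncertain.

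Among spindle genes 6 of the 11 fell. Tpx2 stood at 8.96, 11.3 and 7.55 CPM in the young, at 1.15, 9.8 and 7.22 CPM in the aged and at 1.56, 2.29 and 3.73 CPM in the CASIN samples, a difference of -1.99, and Kif11 stood at 7.91, 11.3 and 4.67 CPM, at 0.638, 6.47 and 4.29 CPM and at 1.91, 2.64 and 1.7 CPM, also a difference of -1.99. CASIN samples of both genes lay below all young samples. Nusap1, Kif4 and Tacc3 fell by 2.20, 2.62 and 1.59. Kif4 stood at 3.87, 3.57 and 2.87 CPM in the young and at 0.255, 3.92 and 4.29 CPM in the aged samples. In the CASIN samples it stood at 0.347, 0.704 and 0.792 CPM, so the size of its fall is uncertain. Pimreg passed too, but with 0, 1 and 2 UMIs in the CASIN samples, so the size of its fitted value depends on the prior count. Ckap5 was at -0.19 (SE 0.11), the difference nearest to 0 of the members tested.

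Of the 7 midzone and cytokinesis genes 6 fell, the exception being Anln, the scaffold anillin, at -0.68. Prc1, which bundles the microtubules of the midzone, stood at 10.9, 21.2 and 7.55 CPM in the young, at 1.79, 10.4 and 7.45 CPM in the aged and at 1.39, 3.17 and 3.62 CPM in the CASIN samples, a difference of -2.34. Racgap1, which works with Kif23 at the midzone, stood at 12.7, 13 and 6.83 CPM, at 4.97, 9.02 and 7.67 CPM and at 4.52, 6.52 and 3.39 CPM, a difference of -1.17. All CASIN samples of both lay below all young ones. Kif20a passed with 0, 1 and 2 UMIs in the CASIN samples and is given by these counts alone. Birc5 fell by 2.95 (SE 0.65, edgeR adjusted p = 0.0121), from 17.4, 27.9 and 9.34 CPM in the young, with 1.79, 10.0 and 8.35 CPM in the aged and 0.521, 4.93 and 1.81 CPM in the CASIN samples. Aurkb, the kinase that Birc5 holds at the centromere, fell by 2.75. It stood at 8.96, 9.66 and 2.52 CPM in the young and at 0.347, 2.47 and 0.453 CPM in the CASIN samples. At such CASIN levels the sizes of the falls of Birc5 and Aurkb are uncertain. Aurka, at -1.44, did not pass (edgeR adjusted p = 0.0766). Neither checkpoint gene tested, Bub1 and Bub1b, passed.

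At an unadjusted p of 0.05, 35 members passed, beside 27.9% of genes (edgeR). All CASIN samples lay below all young samples for 28 members and for 7.14% of all genes. Both CASIN samples lay below both young ones of batch 1 for 38 members (32.3%), and CASIN sample 3 below young sample 3 for 37 (56.4%). The median difference over the tested members was -2.0 in batch 1 and -0.90 in batch 2. The share of HSC-like cells with a UMI, thinned to 4000 UMIs, was less uniform over the 26 members of the panel. For 11 all CASIN samples lay below all young ones, 14 overlapped and 1 lay above. The share of all genes doing so was not computed for this class. Since the filter on low counts kept members that were counted in at least the higher group, the fit was also run with no filter, where 28 of all 43 passed. The number that passed depended on the fit and the libraries: DESeq2 called 25, of which 24 were called by edgeR, the fit with no batch term called 0 (26 at an unadjusted p of 0.05, edgeR), and leaving out 1 library gave 2 (without CASIN sample 3) to 34 (without young sample 3). With young sample 1, young sample 2, CASIN sample 1 or CASIN sample 2 left out, 7, 3, 4 and 12 passed, and without aged sample 1 31 did. All tested members kept a negative difference in each of these fits. The shares of all genes called in the fits with 1 library left out are not given here. Their counts therefore do not show whether members moved more than other genes.

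**Figure D4:**
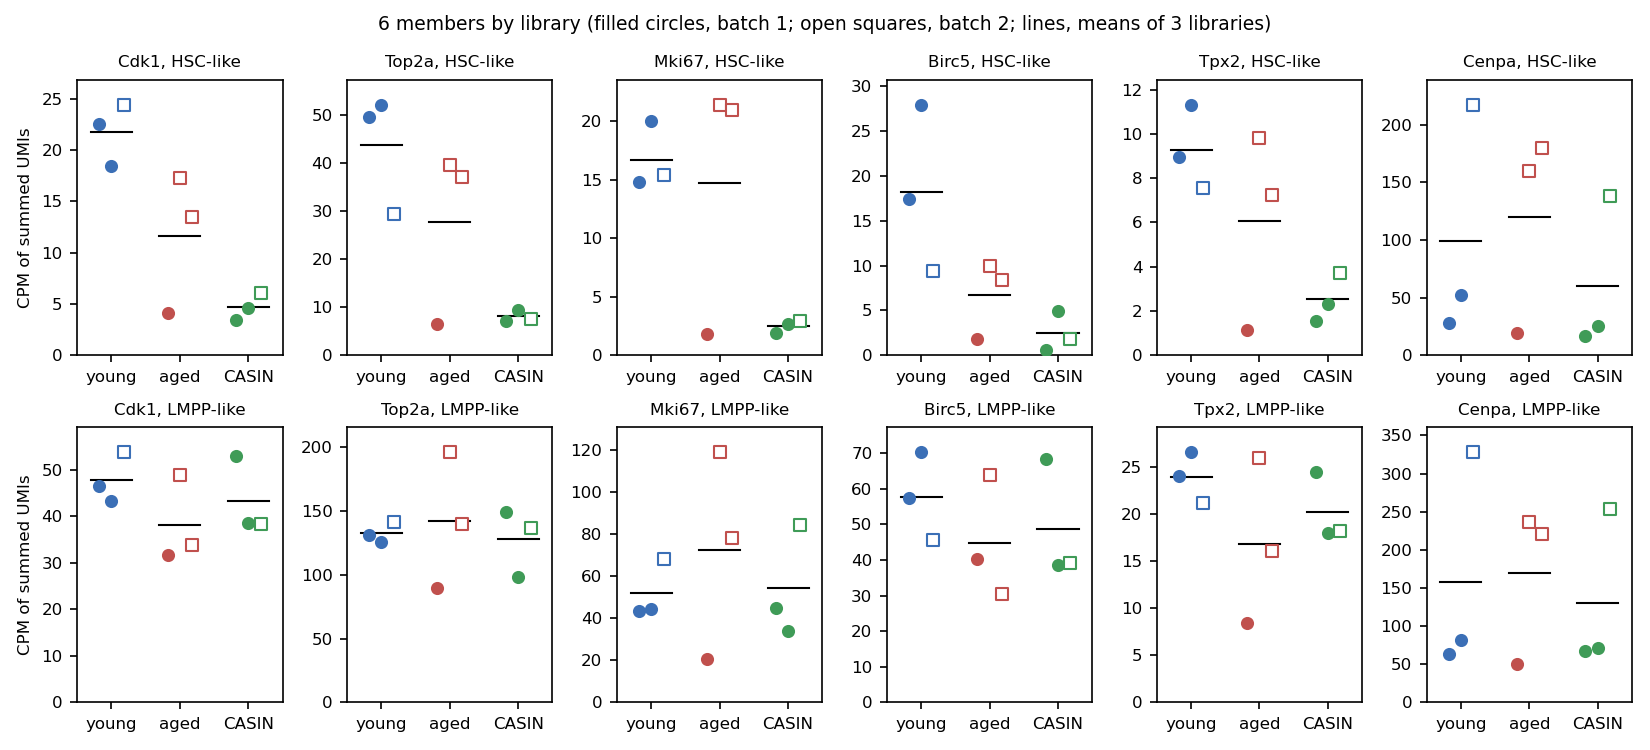
CPM of summed UMIs (y axes, from 0) of 6 members in HSC-like cells (upper row) and LMPP-like cells (lower row), 1 point per library, filled circles for batch 1, open squares for batch 2 and lines for the mean of the 3 libraries of a group. In HSC-like cells the CASIN libraries lie below the young ones for all of these but Cenpa, whose values split by batch, and in LMPP-like cells the groups overlap.

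Aged against young HSC-like cells repeated the split by batch. Cdk1 was the 1 member called, beside 7.02% of all genes, and 14 of the tested members passed at an unadjusted p of 0.05, beside 22.3% of genes (edgeR). With cell cycle genes kept in the clustering and phase scores regressed out, 26 of 38 members were called (10.1% of genes). The median was then -1.67. With a mitochondrial limit of 5% 11 of 35 were called (6.4% of genes) and it was -1.58. Over all LSK cells that limit kept 988 to 2169 cells a sample in batch 1 and 448 to 787 in batch 2. With the main clusters and limits, the median difference was -2.19 in batch 1 and 0.35 in batch 2. In batch 2 young sample 3 lay below both aged samples for 23 members (35.3% of all genes). All aged samples lay below all young for 3 members (6.33%). Without aged sample 1 0 members passed and the median was 0.21, and without young sample 3 19 passed and it was -1.95. CASIN against aged called 0 members and 0 genes (0.00%) in HSC-like cells (edgeR, 7 members at an unadjusted p of 0.05, beside 2.87% of genes), with a median of -0.86 that was 0.27 in batch 1 and -1.24 in batch 2. Mki67 had -2.02 in this comparison (SE 0.62, edgeR adjusted p = 0.999), from 0.25 in batch 1 and -2.68 in batch 2. Without aged sample 1 5 members passed, all lower, with a median of -1.82. For the HSC-like fits with 1 library left out, the shares of all genes called are not given here.

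HSC-like cells with many members at once were few, and any dividing HSCs that fell into other clusters are not counted among them. A UMI of 10 or more members was held by 7 of 439, 7 of 406 and 3 of 242 cells in the young samples, by 0 of 710, 8 of 476 and 6 of 447 in the aged and by 0 of 408, 1 of 579 and 0 of 926 in the CASIN samples, so by 1.56%, 0.857% and 0.0523% of the groups' cells. These cells held 29.3, 50.8 and 17.7% of the members' UMIs in HSC-like cells of the young samples, 0, 34.0 and 19.3% in the aged and 0, 14.9 and 0% in the CASIN samples. In young sample 2, 7 cells therefore carried 50.8% of the members' UMIs of the class, and Ube2c and Cenpf were highest in that sample.

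In LMPP-like cells of the same libraries the members did not pass in any comparison, with 0 of 43 called beside 0.152% of 11211 genes for aged against young, 0.00% for CASIN against aged and 0.0981% for CASIN against young, and with 4, 1 and 1 at an unadjusted p of 0.05, beside 9.87, 5.50 and 6.32% of genes (edgeR). Cdk1 stood at 46.5, 43.3 and 53.7 CPM in the young, at 31.6, 48.8 and 33.7 CPM in the aged and at 52.9, 38.5 and 38.2 CPM in the CASIN samples (CASIN against young -0.13, edgeR adjusted p = 0.949). Mki67 stood at 43.5, 44.3 and 68.2 CPM, at 20.8, 119 and 78.4 CPM and at 45, 34.0 and 84.6 CPM, and Top2a at 131, 126 and 141 CPM, at 89.4, 196 and 140 CPM and at 149, 98.5 and 137 CPM. For Mki67 and Top2a CASIN samples lay on both sides of the young ones, for Cdk1 1 CASIN sample lay within the young range and the other two below it, and for 0 of 43 members did all CASIN samples lie below all young ones (2.03% of all genes).

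Whether the difference of CASIN from young was larger in HSC-like than in LMPP-like cells was tested with limma on the difference of log2 CPM between the classes within each sample. It was for 12 of the 38 members tested in both, all lower in HSC-like cells, beside 4.61% of the 10887 genes tested in both (2.72% lower). Mki67 differed by -2.53 (SE 0.34, limma adjusted p = 0.00128) and Cdk1 by -1.94 (SE 0.26, limma adjusted p = 0.00128). The others were Pimreg, Birc5, Top2a, Nuf2, Prc1, Nusap1, Kif11, Tpx2, Tacc3 and Racgap1, between -2.80 and -1.24, of which Pimreg, at -2.80, had 0, 1 and 2 and Nuf2 1, 0 and 5 UMIs in the HSC-like cells of the CASIN samples, so that the size of both values depends on the prior count. The same test was passed by 0 members for aged against young (1.63% of genes) and by 0 for CASIN against aged (0.00%), with 9 and 16 members at an unadjusted p of 0.05, beside 16.4 and 4.97% of genes (limma). For CASIN against young 29 were at an unadjusted p of 0.05, beside 18.2%. The count of 12 was 3 without young sample 1, young sample 2 or CASIN sample 1, 7 without CASIN sample 3, 22 without aged sample 1, 26 without young sample 3, and 1 with no batch term. For aged against young 6 members passed without young sample 3. The shares of all genes that passed in these alternative fits are not given here.

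**Figure D5:**
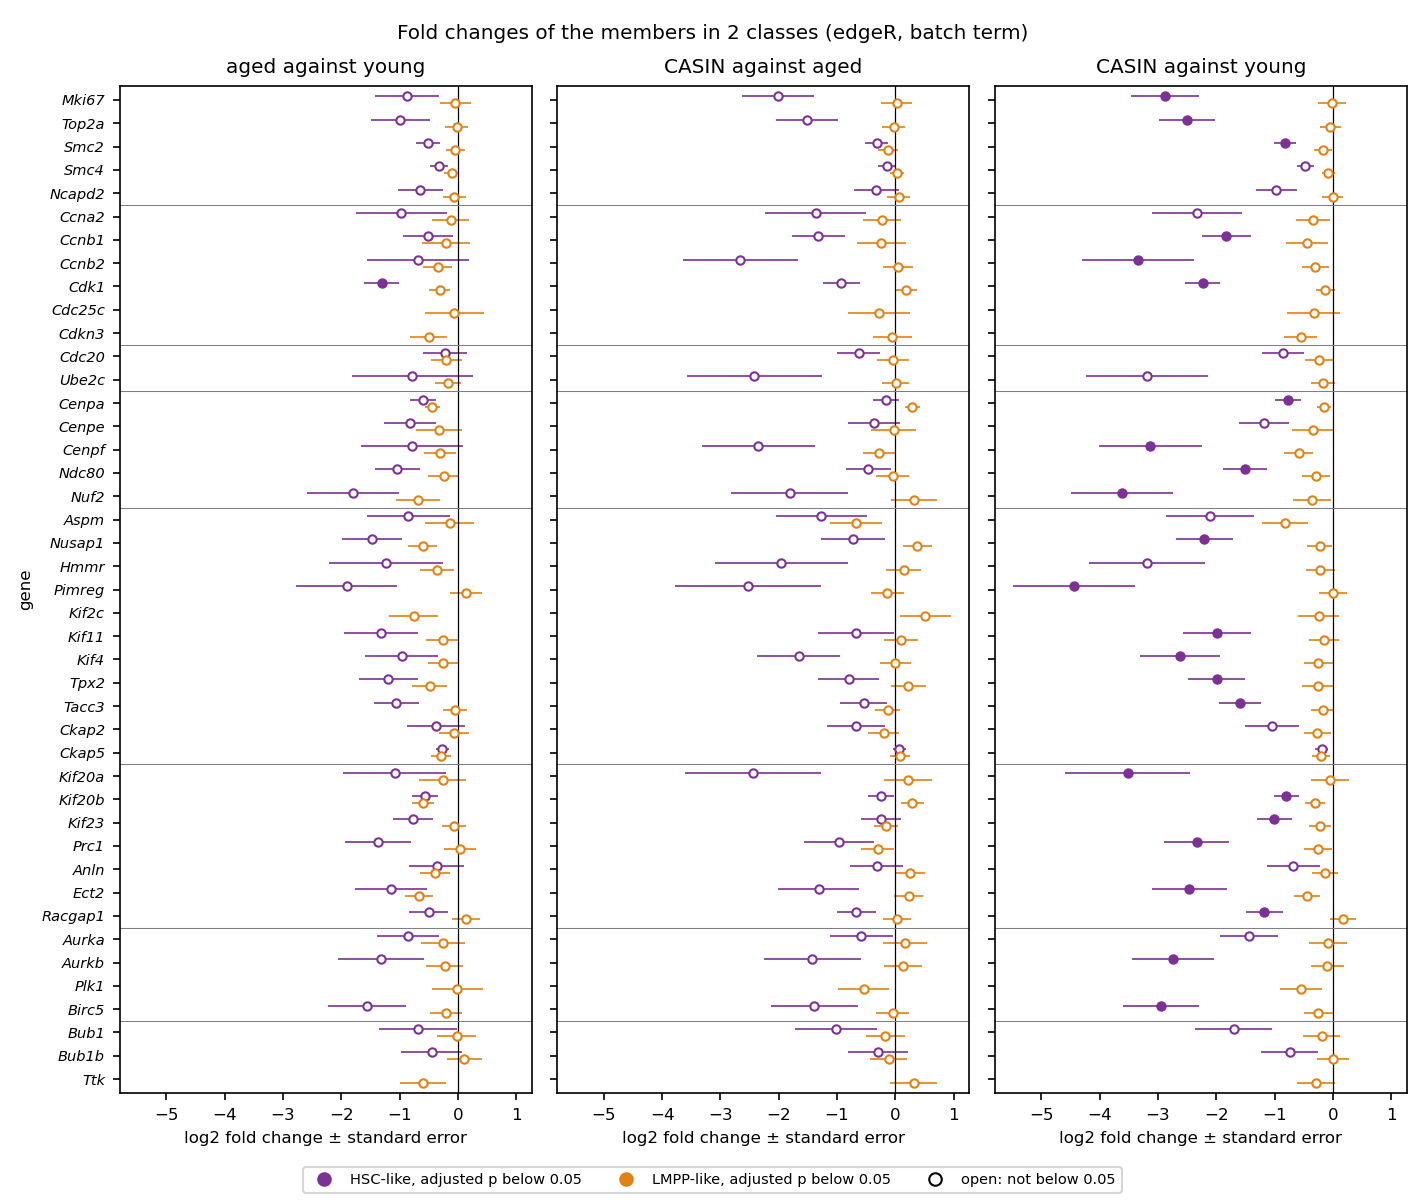
Fitted log2 fold change with its standard error (x axis) of each member (rows, by role) in HSC-like and LMPP-like cells for the 3 comparisons, filled where the edgeR adjusted p was below 0.05, with no HSC-like point for the 5 members not tested there. Filled points are 24 HSC-like members for CASIN against young and Cdk1 for aged against young, and no LMPP-like point is filled.

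Among the smaller classes, CASIN against young called 2 members in MPP1-like cells, Ccnb2 at -1.83 and Birc5 at -1.38 (edgeR, 2.88% of 6323 genes), and 0 in MPP2-like and MPP3-like cells (1.15 and 0.475% of genes). In MPP1-like cells 24 of the 43 members could be tested, from 34 to 121 cells a sample. The part of the low UMI counts of these cells in the calls was not tested. The medians over tested members were -0.80 in MPP1-like, -0.22 in MPP2-like and -0.58 in MPP3-like cells. Aged against young and CASIN against aged called 0 members in these classes (1.41, 1.34 and 1.25% of genes for aged against young and 0.00% for CASIN against aged).

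Other genes of mitosis and of DNA replication, from lists that hold no member, were placed beside the set. Over all LSK cells, 3 of 107 other mitosis genes fell between aged and young, Cenpk at -0.65, Shcbp1 at -0.78 and Mis12 at -0.61 (edgeR). Of all genes tested, 4.1% were called there in either direction and 0.513% were lower. Between CASIN and young 3 of the 107 fell, Cenpk at -0.63, Cenpq at -0.39 and Plk4 at -0.55 (edgeR). Beside these, 4.27% of all genes were called in either direction and 0.462% were lower. Cenpk, Cenpq and Mis12 encode proteins of the kinetochore and Plk4 the kinase of centriole copying. In HSC-like cells 94 of the 107 could be tested. Of these 44 fell and 1 rose between CASIN and young, beside 13.5% of all genes called there in either direction (5.25% lower), and 6 fell and 1 rose between aged and young, beside 7.02% called in either direction. Of 30 DNA replication genes, all tested in HSC-like cells, 25 fell between CASIN and young and 7 between aged and young. In LMPP-like cells 0 of either list passed in any comparison.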

How the data were processed

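LSK cells of the 9 samples were profiled with the 10x Genomics 3′ v3 chemistry. The authors ran Cell Ranger 3.1.0 against GRCm38 (mm10) and deposited, per sample, UMI counts per gene and cell without normalization. The 43 members, their roles and the other gene lists were chosen with earlier results of these data known, as were the tests.

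From the deposited counts, cells were kept with at most 10% mitochondrial UMIs, at most 6000 genes and 1000 to 40000 UMIs, within 0.4 of the fit of genes on UMIs on a log scale, which left 15856 of 32387 barcodes. Scrublet, run in scanpy 1.11.5, marked 71 cells (0.448%), too few to count as working, so doublets were not removed and the 477 cells of highest score were left out as an alternative added after seeing the data. A second one left out the 125 cells of 54 barcodes found in more than 1 library. Seurat 5.3.0 (SCTransform, canonical correlation anchors, integration of embeddings in place of expression values for lack of memory, resolution 0.4) clustered the cells on 2748 of 3000 variable genes, with 252 cell cycle genes left out. An alternative clustering kept the cell cycle genes and regressed out each cell's scores of cell cycle phases. Classes were named from marker lists that were likewise chosen with earlier results of these data known. HSC-like cells joined the clusters of the HSC-1 and HSC-3 markers.

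UMIs were summed per sample and class over cells, with 20 cells a sample as the minimum, and tested with edgeR 4.0.16 (quasi-likelihood test, TMM, filterByExpr, all 9 samples, batch as a term, Benjamini-Hochberg adjustment over all genes tested, threshold 0.05) in R 4.3.3. The difference between classes was tested with limma 3.58.1 on log2 CPM with a prior count of 2, which was also used for differences within batches. Shares of cells came from cells thinned to 4000 UMIs, without 332 shallower cells, and were compared with an exact permutation test, 2-sided. Fold changes are log2 throughout. The models were run on simulated data with known changes. Apart from those changes the simulated levels did not differ between batches, so the run did not test how the models handle the batches. DESeq2 1.42.0 and the other alternatives stand in the closing section. Promoter words were read from RefSeq sequence of GRCm38.p6, whose windows matched the transcript strand in all 29 that could be placed on a transcript. Of the members, 10 are overlapped by another gene on the same strand. Whether this affected their counts was not tested.

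All 43 members could be named. Values per sample were given for a fixed panel of 26 members and for the 3 smallest unadjusted p-values of a comparison where none was called, and other mitosis genes were named as the 3 smallest adjusted p-values in each direction among those called.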

Additional observations from a re-analysis of the deposited data

Results flagged for a closer look

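The difference of aged from young over all LSK cells was more negative in batch 1 than in batch 2 for 17 members, by the edgeR test of that difference with an adjusted p below 0.05. The log2 difference between the batches was -2.32 for Aurka, -2.28 for Pimreg, -2.28 for Aspm, -1.91 for Cenpf, -1.70 for Bub1, -1.69 for Hmmr, -1.59 for Ccnb2, -1.58 for Cenpe and -1.51 for Mki67. It was -1.45 for Kif23, -1.43 for Ccna2, -1.42 for Tpx2, -1.40 for Anln, -1.37 for Prc1, -1.33 for Nusap1, -1.26 for Top2a and -1.14 for Ndc80. They come from every role but the anaphase-promoting complex. Aged sample 1 alone stands for aged in batch 1 and young sample 3 alone for young in batch 2.

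The difference of CASIN from young was more negative in HSC-like than in LMPP-like cells for 12 members, by the limma test of that difference with an adjusted p below 0.05. The log2 difference between the classes was -2.80 for Pimreg, -2.65 for Birc5, -2.53 for Mki67, -2.23 for Top2a, -2.19 for Nuf2 and -1.94 for Cdk1. Pimreg had 0, 1 and 2 and Nuf2 1, 0 and 5 UMIs in the HSC-like cells of the CASIN samples, so the size of these values depends on the prior count. For Prc1 it was -1.82, for Nusap1 -1.75, for Kif11 -1.53, for Tpx2 -1.50, for Tacc3 -1.28 and for Racgap1 -1.24. Groups of 3 samples are too small for a search for single samples that lie far from the rest.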

How the results depend on the processing

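The samples are 3 a group and unequally split over the batches, so 1 library decides many counts of called members, and members with under 10 UMIs a sample in HSC-like cells are held by counting error. Over all LSK cells, aged against young (0 members called by edgeR) called 8 with DESeq2 (8.32% of genes) and 2 with no filter on low counts (3.08%). It called 1 with DESeq2's size factors (4.26%), 1 with cells thinned to 4000 UMIs (3.37%) and 4 with a mitochondrial limit of 20% (6.66%). With 1 library left out it called 0 to 3. CASIN against young (0) called 5 with DESeq2 (9.3% of genes), 26 with only the groups compared (13.4%) and 0 to 19 with 1 library left out. In HSC-like cells, aged against young (1) called 0 with no batch term, 0 with only the groups compared, 11 with a mitochondrial limit of 5%, 26 with cell cycle genes kept in the clustering, and 0 to 19 with 1 library left out, and CASIN against aged (0) called 0 to 5. CASIN against young HSC-like cells (24) called 0 with no batch term, 7 with thinned cells, where 19 members could be tested, and 2 to 34 with 1 library left out. It called 25 with DESeq2, 26 with only the groups compared and 18 with a mitochondrial limit of 5%. It called 19 without the cells of highest doublet score and 24 without shared barcodes. At a resolution of 0.8 it called 26, and with cell cycle genes kept 35. In the clustering that kept the cell cycle genes, phase scores were regressed out. With no filter, MPP1-like cells called 3 for CASIN against aged and 9 for CASIN against young (2, and 0 with DESeq2), MPP2-like cells 5 for aged against young and 1 for CASIN against young, and MPP3-like cells 2 for CASIN against aged and 10 for CASIN against young. With 1 library left out these were 0 to 3 and 0 to 6, 0 to 5 and 0 to 2, and 0 to 1 and 0 to 3. The difference between batches for CASIN against aged (0) called 3 with no filter, and for aged against young 23 (17). The difference between classes called 1 with no batch term and 3 to 26 with 1 library left out for CASIN against young (12), 0 to 6 for aged against young and 0 to 5 for CASIN against aged (0 each). Panel members whose shares did not overlap between aged and young were 7 without thinning (4). Where no share of all genes stands beside a count in this section, that share is not given here. Such counts do not show whether members moved more than other genes. Between CASIN and aged over all LSK cells the sign turned for Cenpa (-0.33) and Ect2 (-0.027) with no batch term, and with 1 library left out Cenpa ran from -0.023 to 0.47, Kif2c from -0.22 to 0.74 and Ect2 from -0.14 to 0.51. The cause of these changes was not tested. A fit with the replicate number as a replicate block called 0, 0 and 0 members over all LSK cells, 1, 0 and 25 in HSC-like cells and 0, 0 and 0 in LMPP-like cells. The numbers do not pair the samples, since number 2 crosses the batches (correlation of deviations -0.614 for young and aged sample 2, and 0.726 for young and aged sample 1).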
